A study of Mus musculus with 6 samples.

Results

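The 10 genes described here encode the junctions, the keratin filaments and the apical surface of an endodermal epithelium: Cdh1, Epcam and Cldn6 at the lateral membrane, Krt8, Krt18 and Krt19 in the cytoskeleton, and Vil1, Dpp4, Anpep and Podxl at the apical membrane. They were chosen by name, as the probe sets whose only gene symbol in the platform annotation is that of a member. Each gene was found, with 1 probe set each, so the set holds 10 of the 35557 probe sets on the array, and all 10 were bright enough to be tested. Yolk sacs were dissected from single mouse embryos at embryonic day 9.5, and the total RNA of each was hybridised to its own array. One group is 3 wild-type littermates and the other is 3 embryos labelled as Tnrc6a (GW182) mutants, homozygous for a gene-trap allele of GW182. This is a protein through which Argonaute and a bound microRNA bring about decay of the target mRNA. Both genotype labels carry the term mixed, whose meaning is not given. The tissue is the whole yolk sac, so visceral endoderm was measured together with endothelium, mesenchyme, mesothelium and blood. A lower signal can therefore come from fewer cells of a type or from less RNA per cell, which cannot be told apart.

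The visceral endoderm of the yolk sac is a polarised absorptive epithelium that faces the uterus and takes up nutrients for the embryo before the placenta works. E-cadherin, the product of Cdh1, joins neighbouring cells through catenins at the adherens junction. Claudins seal the tight junction above it, and simple-epithelium keratins pair as filaments anchored at desmosomes. On the apical side villin bundles the actin of microvilli, which carry membrane peptidases that trim peptides in the lumen. Transcription factors of the Snail and Zeb families repress Cdh1 by binding E-box sequences, and Grainyhead-like factors promote epithelial genes. The microRNAs of the miR-200 family repress Zeb1 and Zeb2, and act through Argonaute and GW182 proteins as other microRNAs do.

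None of the 10 genes differed between genotypes by the test across all probe sets. Signals were 1.19-fold (Krt19) and 1.16-fold (Dpp4) higher in the mutants at the upper end and 1.16-fold lower (Cldn6) at the lower end, and the yolk sacs of 1 genotype often lay further apart than that. The 95% intervals from limma for all genes but Krt19 lay between 0.697 times (Cldn6) and 1.37 times (Dpp4) the wild-type level. The adjusted p (limma, Benjamini-Hochberg over 16387 probe sets) was 0.999 for each of the 10. This threshold was passed by 0% of all tested probe sets, and an unadjusted limma p under 0.05 by 3.53% of them and by 0 of the 10 genes. In the mutants 8 genes had a higher mean and 2 a lower one, with a median log2 difference of 0.064, against 52.4% higher and a median of 0.0063 over all tested probe sets. Without mutant 2 that median was 0.013, and without mutant 3 it was 0.15.

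**Figure D1:**
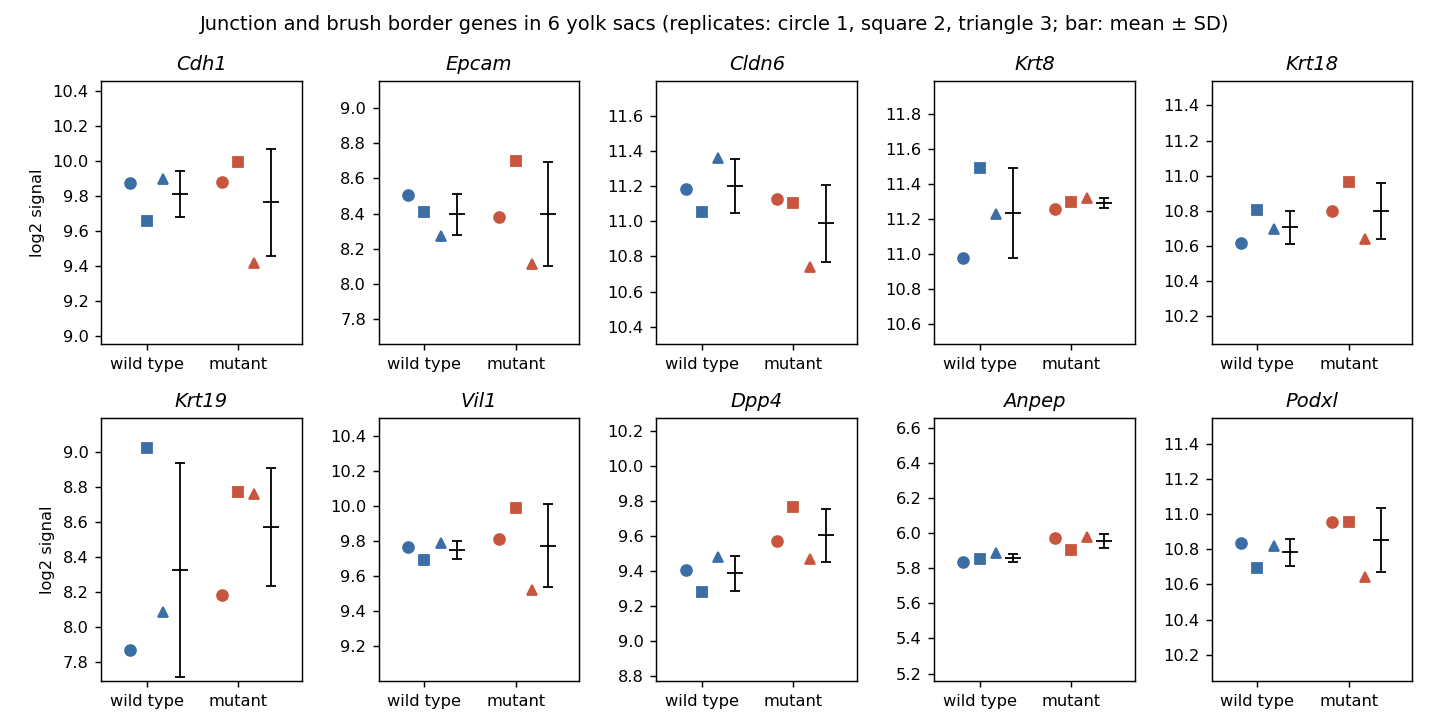
Log2 signal (vertical axis) of each of the 10 genes in the 3 wild-type (blue) and 3 mutant (red) yolk sacs, with symbols for the replicate and the mean ± SD as a bar; every panel spans the same height of log2 units around its own centre. Only in the Anpep panel do all mutants lie above all wild types, while Cdh1, Epcam and Cldn6 each have mutant 3 as their lowest point.

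The libraries did not all read alike, and this bears on each value below. Tnrc6a read 8.40, 7.62 and 8.29 in wild types 1 to 3, and 7.81, 5.33 and 5.20 in mutants 1 to 3. The library labelled mutant 1 thus goes against its label and is named that way here. Between genotypes the log2 difference of Tnrc6a was −1.99 (SE 0.65, unadjusted p = 0.0167, adjusted p = 0.999, limma). The adjusted test therefore did not call the targeted gene itself. Wild type 2 stood apart in markers of parietal endoderm, with a mean log2 signal 1.41 above the wild-type mean, while the other 5 libraries lay between −0.71 and −0.43. Array medians ran from 5.19 to 5.22, and 3 arrays a group limit the precision, with a median SE of 0.10 for the log2 difference of a tested probe set. Visceral endoderm itself was well represented, since 16 of 16 matched markers passed the filter on dim probe sets. Among them were Afp at 12.6 to 12.7 and Ttr at 12.6 to 12.7. The mean over the list ran from −0.072 (mutant 3) to 0.13 (mutant 2) around the wild-type mean.

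Sequences upstream of the start sites are shown first because the levels of the factors that bind them were measured in the same arrays. RefSeq promoter entries (GRCm38.p6) were matched for 7 of the 10 genes, namely Anpep, Cldn6, Dpp4, Epcam, Krt8, Krt18 and Vil1. In the 250 bases before the start, the E-box CACCTG or its reverse complement CAGGTG was found in 4 of the 7 windows, and in 17.2% of all 32851 windows in the table. The Grainyhead-like core ACCGGT, which reads the same on both strands, was found in 1 of the 7, and in 1.86% of all windows. No overlap between the motifs occurred in the sequences below, which are those of the 4 windows with an E-box; E-boxes and the ACCGGT core are in capitals, and the last base is the one before the start. A match of letters is a description and not a bound site.
Epcam upstream, chr17:87635729-87635978, plus strand: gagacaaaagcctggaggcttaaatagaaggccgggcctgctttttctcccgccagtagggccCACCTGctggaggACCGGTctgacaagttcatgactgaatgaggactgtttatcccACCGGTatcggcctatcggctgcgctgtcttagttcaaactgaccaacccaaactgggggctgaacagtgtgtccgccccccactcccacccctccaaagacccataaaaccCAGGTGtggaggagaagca
Cldn6 upstream, chr17:23679115-23679364, plus strand: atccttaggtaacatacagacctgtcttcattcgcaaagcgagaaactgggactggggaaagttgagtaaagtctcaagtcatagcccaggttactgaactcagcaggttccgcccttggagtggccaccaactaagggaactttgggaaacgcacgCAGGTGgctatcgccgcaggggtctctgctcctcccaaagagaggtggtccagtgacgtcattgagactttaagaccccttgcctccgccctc
Krt8 upstream, chr15:102004343-102004592, minus strand: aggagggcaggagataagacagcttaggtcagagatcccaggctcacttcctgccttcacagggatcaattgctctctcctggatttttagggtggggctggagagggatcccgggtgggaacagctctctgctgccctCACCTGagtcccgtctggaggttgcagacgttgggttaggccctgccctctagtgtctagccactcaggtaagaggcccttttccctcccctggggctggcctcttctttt
Krt18 upstream, chr15:102027966-102028215, plus strand: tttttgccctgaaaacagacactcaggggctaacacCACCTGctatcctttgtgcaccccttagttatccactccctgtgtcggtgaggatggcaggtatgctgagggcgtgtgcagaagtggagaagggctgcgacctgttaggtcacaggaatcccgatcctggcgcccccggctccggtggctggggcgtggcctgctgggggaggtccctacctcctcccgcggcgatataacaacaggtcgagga
Counted back from the start site, the E-boxes of Epcam begin at −187 and −19 and its ACCGGT cores at −174 and −131. The E-box begins at −93 in Cldn6, −111 in Krt8 and −214 in Krt18.

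Among the junction genes, Cdh1, which encodes E-cadherin, read 9.88, 9.66 and 9.90 in wild types 1 to 3, and 9.88 in the library labelled mutant 1. Mutant 2 was the highest of the 6 at 9.99. Mutant 3 read 9.42, lower than every other library. The groups overlapped, with a wild-type mean of 9.81 ± 0.13 (SD, n = 3) and a mutant mean of 9.76 ± 0.31 (SD, n = 3). The genotypes differed by −0.047 on the log2 scale (SE 0.16, 95% interval −0.41 to 0.32; adjusted p = 0.999 by limma), and without mutant 3 it turned to 0.13. Within the mutants the highest and lowest yolk sacs lay 1.49-fold apart, and within wild type 1.18-fold.

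Epcam encodes an epithelial adhesion molecule that interacts with claudins. Its signals were 8.51, 8.41 and 8.27 in wild type, then 8.38, 8.70 and 8.11 in mutants 1 to 3. Both the highest and the lowest library were mutants, and the means were equal to the second decimal, at 8.40 ± 0.12 (SD, n = 3) and 8.40 ± 0.29 (SD, n = 3). Between genotypes the log2 difference was 0.0024 (SE 0.15, 95% interval −0.35 to 0.36), −0.15 without mutant 2 and 0.15 without mutant 3.

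Cldn6, a claudin of embryonic epithelia, had the largest negative difference of the 10. It read 11.18, 11.05 and 11.36 in wild type and 11.13, 11.10 and 10.74 in mutants 1 to 3. All mutants lay below the wild-type median, with mutant 3 below all other libraries, but wild type 2 lay below the first 2 mutants. The log2 difference was −0.21 (SE 0.13, 95% interval −0.52 to 0.10), with an unadjusted p of 0.155 and an adjusted p of 0.999 by limma. It was −0.28 without wild type 2, −0.28 without the library labelled mutant 1 and −0.085 without mutant 3. With the visceral endoderm marker mean as a covariate it was −0.29 (unadjusted p = 0.0407, adjusted p = 1.00, limma). Cldn9, which lies next to Cldn6 on chromosome 17, was dim at 4.83 to 5.20 and differed by 0.15 (SE 0.095), in the opposite direction to Cldn6 and likewise without passing the test (adjusted p = 0.999, limma).

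Of the keratins, Krt8 and Krt18, neighbouring genes on chromosome 15 that encode the partners of the simple-epithelium filament, had different patterns over the libraries. Krt8 read 10.98, 11.49 and 11.23 in wild type, but 11.26, 11.30 and 11.32 in the mutants, a 1.43-fold range against one of 1.04-fold. Wild types 1 and 2 were the extremes, with all mutants between them. Its log2 difference was 0.058 (SE 0.13, 95% interval −0.24 to 0.36). It was 0.19 without wild type 2 and −0.069 without wild type 1.

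Krt18 read 10.62, 10.80 and 10.70 in wild type and 10.80, 10.96 and 10.64 in the mutants. Mutant 2 was the highest library and the groups overlapped, with a log2 difference of 0.092 (SE 0.11, 95% interval −0.16 to 0.34). It was 0.010 without mutant 2 and 0.17 without mutant 3. The Krt8 probe set may also read the Krt8-ps pseudogene that RefSeq lists, since the probe sequences were not used here.

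Krt19, a keratin of simple and ductal epithelia, varied more than any other member. Wild types 1 and 3 read 7.87 and 8.09, and wild type 2 read 9.02. The library labelled mutant 1 read 8.18 and mutants 2 and 3 read 8.77 and 8.76. The highest and lowest wild types were 2.22-fold apart, more than the mutants were, at 1.50-fold. The pooled SD within genotypes, 0.49, lay at the 98.6th percentile of the tested probe sets. The log2 difference was 0.25 (SE 0.30, 95% interval −0.46 to 0.95; adjusted p = 0.999, limma), and 0.018 without wild type 1. Without wild type 2 it was 0.59 (unadjusted p = 0.0204, adjusted p = 0.975, limma). Leaving out the library labelled mutant 1 as well gave 0.79 (unadjusted p = 0.000698, adjusted p = 0.477, limma). Wild type 2 was the highest of its genotype and the library labelled mutant 1 the lowest of its own, so both differences had to widen. Wild type 2 was also the highest library in the parietal endoderm, mesenchyme, and trophoblast and decidua lists (the last at 0.44, against −0.33 to −0.035 elsewhere). Mutant 2 was the highest in the mesothelium list. The part of all these cells in the signals of Krt19, Krt8 and Krt18 was not tested.

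**Figure D2:**
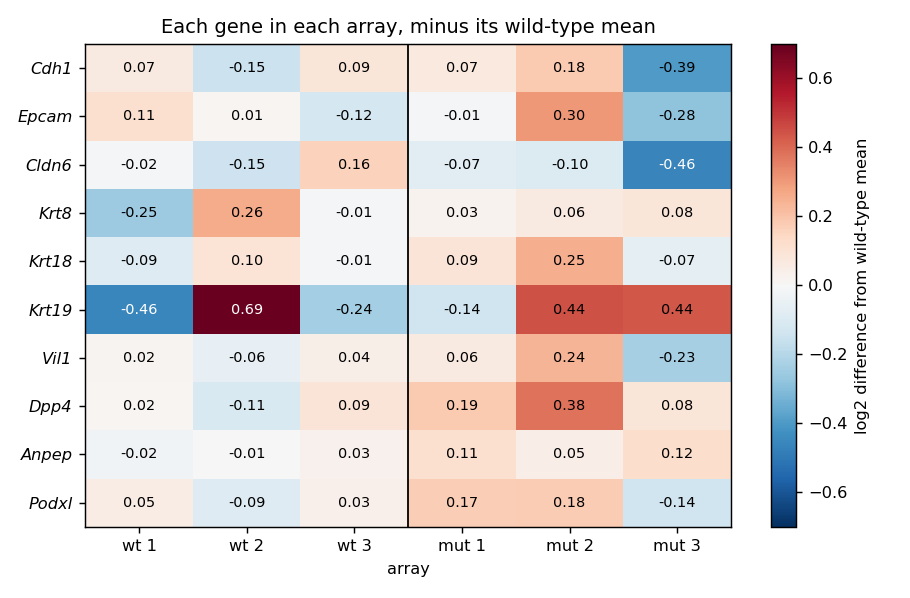
Log2 signal of each gene (rows) in each array (columns) minus the wild-type mean of that gene, with the value in each cell and red for higher. Mutant 2 is red in 9 of 10 rows, mutant 3 is blue in 6 and Krt19 has the largest single value, 0.69 in wild type 2.

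Of the apical genes, Vil1, which encodes villin, was nearly constant in wild type and spread in the mutants. It read 9.77, 9.69 and 9.79 in wild type, a 1.07-fold range, and 9.81, 9.99 and 9.52 in mutants 1 to 3, a 1.38-fold range. The mutants lay on both sides of the wild types, and the log2 difference was 0.023 (SE 0.12, 95% interval −0.27 to 0.31). It was −0.083 without mutant 2 and 0.15 without mutant 3.

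Podxl encodes podocalyxin, a sialomucin of apical and also of endothelial and blood progenitor surfaces. It read 10.84, 10.69 and 10.82 in wild type and 10.96, 10.96 and 10.64 in the mutants. The library labelled mutant 1 and mutant 2 were above all wild types, and mutant 3 was below them, and mutant 3 had the highest endothelial marker mean of the 6 libraries (0.49 above the wild-type mean). Its genotype difference was 0.069 (SE 0.11, 95% interval −0.18 to 0.32). It was 0.17 without mutant 3, 0.018 without the library labelled mutant 1, 0.016 without mutant 2 and 0.025 without wild type 2.

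Dpp4, a serine peptidase that removes dipeptides from the N-terminus of peptides, had the lowest unadjusted p of the 10 genes. Wild types read 9.40, 9.28 and 9.48, and the mutants 9.57, 9.77 and 9.47. The groups overlapped only in that mutant 3 lay just below wild type 3. Means were 9.39 ± 0.099 (SD, n = 3) and 9.60 ± 0.15 (SD, n = 3). This log2 difference of 0.22 (SE 0.10, 95% interval −0.026 to 0.46) had an unadjusted p of 0.0729 and an adjusted p of 0.999 by limma. By exact permutation, two-sided, p was 0.2. Without mutant 2 the difference was 0.13, and without the library labelled mutant 1 it was 0.23. Without mutant 3 it was 0.28 (unadjusted p = 0.0312, adjusted p = 0.592, limma), and with the visceral endoderm mean as a covariate 0.17.

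Anpep, which encodes aminopeptidase N, was the only 1 of the 10 genes whose genotypes did not overlap; 8.55% of all tested probe sets showed this too, 5.17% with the mutants above and 3.38% with them below. Its signal was the lowest of the 10 genes, at 5.84, 5.85 and 5.89 in wild type and 5.97, 5.91 and 5.98 in the mutants. The log2 difference was 0.095 (SE 0.073, 95% interval −0.076 to 0.27), a 1.07-fold difference that did not pass (unadjusted p = 0.233, adjusted p = 0.999, limma). The exact two-sided permutation test gave 0.1, the smallest p that 3 against 3 arrays allow. Its pooled SD of 0.034 was at the 1.7th percentile of tested probe sets, and limma set its SE from the spread of other probe sets as well as its own. The methods' t-test, which uses only its own spread, gave an unadjusted p of 0.0261 and an adjusted p of 0.999 over all probe sets.

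**Figure D3:**
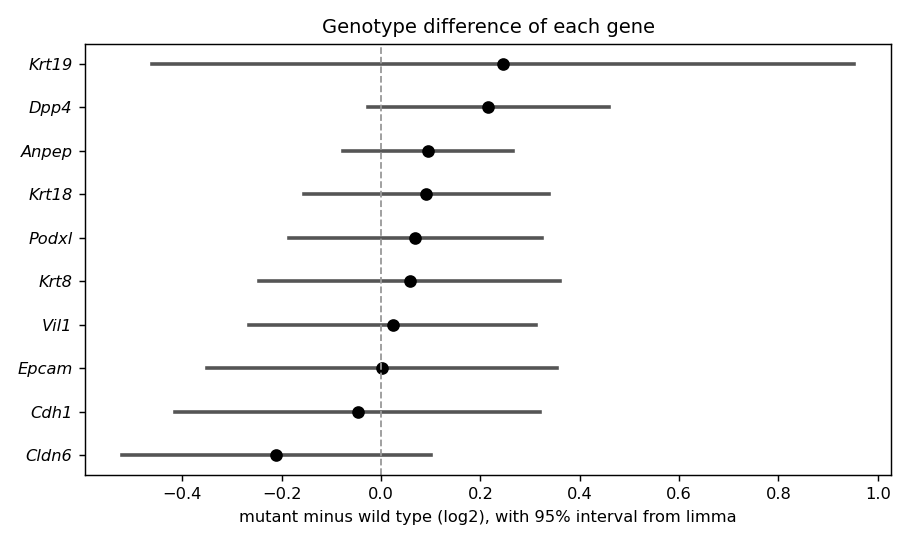
Log2 difference of the mutant mean from the wild-type mean for each gene (point) with its 95% interval from limma (line), ordered by size. Every interval includes 0, from Cldn6 at −0.21 to Krt19 at 0.25, and that of Krt19 is the widest.

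The genes also varied between yolk sacs of the same genotype. The pooled SD within genotypes was above the median of all tested probe sets (0.13) for 8 of the 10, the exceptions being Anpep and Dpp4. The range within wild type exceeded the genotype difference for 8 genes and the range within the mutants did for 9, close to the 85.2% and 88.9% of all tested probe sets for which this held. The SD was larger in the mutants than in wild type for 8 of 10 genes, and for 58.3% of all tested probe sets. Mutant 2 gave the highest value for 6 of the 10 genes, while it was the highest library for 17.1% of tested probe sets. This library also stood apart in 8 primitive erythroid markers, with a list mean of −0.69 against −0.076 to 0.062 in the other 5 and a summed linear signal of 17398 against 22008 to 24597; their part in the result was not tested. Mutant 3 gave the lowest value for 5 of the 10, and was the lowest for 17.4% of tested probe sets. Those genes were Cdh1, Epcam and Cldn6 of the lateral membrane and Vil1 and Podxl of the apical one. The keratins were divided: in mutant 3 Krt18 lay at −0.069 relative to the wild-type mean, and Krt8 and Krt19 at 0.085 and 0.44.

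The visceral endoderm markers moved in the same order among the mutants, mutant 2 being highest at 0.13 and mutant 3 lowest at −0.072. After this mean was subtracted from each library, mutant 3 read −0.32 for Cdh1, −0.39 for Cldn6, −0.21 for Epcam and −0.16 for Vil1 relative to the wild-type mean. For Podxl it read −0.069, where wild type 2 was lower at −0.11. Mutant 2 then read 0.17 for Epcam, 0.11 for Vil1 and 0.052 for Cdh1, where wild types 1 and 3 were higher at 0.10 and 0.065. For Anpep mutant 2 fell to −0.081, below all wild types (−0.024 to 0.017), so its genotypes then overlapped. Those of Dpp4 then did not, with the mutants at 0.12 to 0.25 and the wild types at −0.12 to 0.069. The share of all tested probe sets without overlap after this subtraction was not determined. The summed linear signal of the 16 markers ran from 45284 to 46115 in wild type and from 42698 to 50528 in the mutants. The markers did not move alike in mutant 3. Sox17 read 7.06 there against a wild-type mean of 6.40, and Rbp4 and Foxa1 lay slightly above theirs. The high Sox17 value raised the list mean of mutant 3, and so the mean subtracted there and used as the covariate. The rest lay below, among them Gata4 (7.73 against 8.07), Apoa1 (12.19 against 12.44) and Lrp2 (10.13 against 10.37). Whether the junction genes moved apart from endoderm content was not tested.

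Which genes stood apart depended on the library left out, as did the background. Without wild type 2 the genotypes did not overlap for 4 of the 10 genes (Cldn6 lower, and Krt8, Krt19 and Anpep higher in the mutants), beside 20.9% of tested probe sets. Without mutant 3 they did not overlap for 4 (Vil1, Dpp4, Anpep and Podxl, all higher), beside 27.5%, and without wild type 3 for 2 (Dpp4 and Anpep), beside 15.3%. With wild type 2 and the library labelled mutant 1 both removed, 4 genes stood apart (Cldn6, Krt8, Krt19 and Anpep), beside 35.6%. Anpep alone did so without wild type 1 (15.6%), without the library labelled mutant 1 (17.7%) or without mutant 2 (14.2%). An unadjusted limma p under 0.05 was reached by 1 gene without wild type 2 (Krt19, beside 4.83% of tested probe sets), 1 without mutant 3 (Dpp4, beside 8.37%) and 1 with the pair removed (Krt19, beside 7.16%). It was reached by 0 genes without wild type 1 (2.44%), wild type 3 (2.54%), mutant 2 (2.41%) or the library labelled mutant 1 (4.36%).

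**Figure D4:**
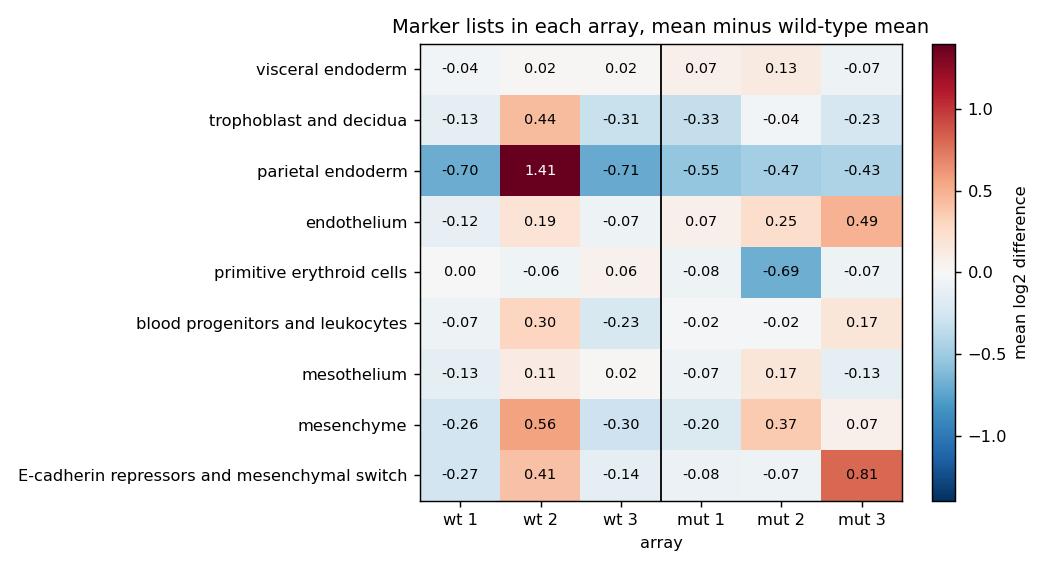
Mean log2 signal of each marker list (rows) in each array (columns) minus the wild-type mean, with values in the cells. Visceral endoderm stays between −0.07 and 0.13, parietal endoderm reaches 1.41 in wild type 2, and the list of E-cadherin repressors and mesenchymal genes reaches 0.81 in mutant 3.

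The list of E-cadherin repressors and mesenchymal switch genes (Snai1, Snai2, Zeb1, Zeb2, Twist1, Twist2, Cdh2 and Vim) was at its highest in mutant 3, the library with the lowest Cdh1. Its mean there was 0.81 above the wild-type mean, against 0.41 in wild type 2 and −0.27 to −0.067 in the other 4. Twist2, a mesenchymal transcription factor, read 8.06 in mutant 3 and 6.09 to 7.02 elsewhere, and Cdh2, which encodes N-cadherin, read 6.35 and 4.04 to 5.40. Zeb1 read 7.51 in mutant 3 and 6.83 to 7.27 elsewhere, and its log2 difference between genotypes was 0.22 (SE 0.16). Vim, the intermediate filament gene of mesenchyme, differed by 0.33 (SE 0.23). Snai1 was instead highest in wild type 2, at 7.24 against 6.68 in mutant 3, and its genotype difference was −0.24 (SE 0.29). By genotype 7 of the 8 genes had a higher mean in the mutants, beside 52.4% of all tested probe sets, and 0 passed the adjusted test. Without mutant 3, 3 of 8 were higher. Several of these genes are expressed in mesenchyme and endothelium, whose lists also varied between libraries. The mesenchyme mean was 0.56 in wild type 2, 0.37 in mutant 2 and 0.074 in mutant 3. The endothelium mean was 0.19, 0.25 and 0.49 in the same libraries. The part of these cells in the values was not tested.

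Epithelial microRNA genes were mostly too dim to compare. The mature miR-200 family is shown because its seeds, bases 2 to 8 in capitals, separate it into a pair of groups that differ by 1 base; the sequences are from RefSeq (GRCm38.p6).
mmu-miR-200b-3p: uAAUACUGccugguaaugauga
mmu-miR-200c-3p: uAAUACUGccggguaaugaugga
mmu-miR-429-3p: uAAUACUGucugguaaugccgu
mmu-miR-200a-3p: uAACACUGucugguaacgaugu
mmu-miR-141-3p: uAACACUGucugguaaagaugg
The first 3 share the seed AAUACUG and the last 2 share AACACUG. Of 9 matched microRNA genes 3 passed the filter, and 0 of the 3 passed the test. Mir200a read 4.77, 4.68 and 4.73 in wild type and 4.96, 4.93 and 4.75 in the mutants, a log2 difference of 0.15 (SE 0.087). Mir194-2 differed by 0.049 (SE 0.072). Mir200b, Mir200c and Mir141 lay below the filter limit of 4.29 in every library, at 2.90 to 3.32, 3.76 to 4.02 and 2.56 to 2.91. These probe sets report the transcript and not the mature microRNA.

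Partners of the junction genes were taken from lists chosen by function. Among adherens junction genes 10 of 12 tested had a higher mean in the mutants, with a median log2 difference of 0.078. Over all tested probe sets 52.4% were higher, with a median of 0.0063. Of the 12 genes 0 passed the adjusted test or an unadjusted limma p under 0.05. Without wild type 2, 7 of 12 were higher, and without wild type 3 or without mutant 3, 11 of 12 were. The cadherin-binding genes Ctnna1, Ctnnb1 and Ctnnd1 differed by 0.045, −0.041 and 0.086. Vcl (vinculin) differed by 0.22 (SE 0.13) and Jup (plakoglobin) by 0.14 (SE 0.089). Among tight junction genes 9 of 17 were higher, with a median of 0.054, and 0 passed the adjusted test. Tjp1, which encodes the scaffold ZO-1, read 8.76, 8.83 and 8.57 in wild type and 8.92, 9.07 and 9.05 in the mutants. All mutants were above all wild types, by a log2 difference of 0.29 (SE 0.098; unadjusted p = 0.0183, adjusted p = 0.999, limma). Of all tested probe sets 2.25% were higher in the mutants at this unadjusted threshold, beside 1 of 17 here. Cxadr, a junctional adhesion receptor, also did not overlap, at a difference of 0.24 (SE 0.11). That made 2 of the 17 with the mutants above without overlap, beside 5.17% of all tested probe sets. Without mutant 2, 7 of the 17 tight junction genes were higher, and without mutant 3, 14 were. Markers of other cells differed by as much as Tjp1: all 10 endothelial markers had a higher mean in the mutants (median 0.27; 3 at an unadjusted limma p under 0.05, 4 without overlap), and all 8 primitive erythroid markers a lower one (median −0.23; 2 at that p, 4 without overlap), with 0 past the adjusted test. Over all tested probe sets 5.17% lay above and 3.38% below without overlap. At an unadjusted limma p under 0.05, 2.25% were higher and 1.28% lower. The part of endothelial and erythroid cells in these differences was not tested.

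Of the polarity genes 10 of 15 were higher, beside 52.4% of all tested probe sets, with a median of 0.013, and 0 passed the adjusted test. Without wild type 2, or without the library labelled mutant 1, 6 of 15 were higher. Pard6b, a subunit of the apical Par complex, differed by −0.18 (SE 0.094) and Llgl2, a basolateral antagonist of it, by 0.16 (SE 0.15). Of desmosome and other keratin genes 6 of 11 were higher and 0 passed. In 1 of the 11, Evpl, the mutants lay below without overlap, at a difference of −0.088 (SE 0.076), beside 3.38% of all tested probe sets. Dsp (desmoplakin) differed by 0.25 (SE 0.12) and Krt7 by −0.33 (SE 0.16). Krt7 was lowest in mutant 3, at 7.93 against 8.46 to 8.77 in the other libraries, and without mutant 3 its difference was −0.15.

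**Figure D5:**
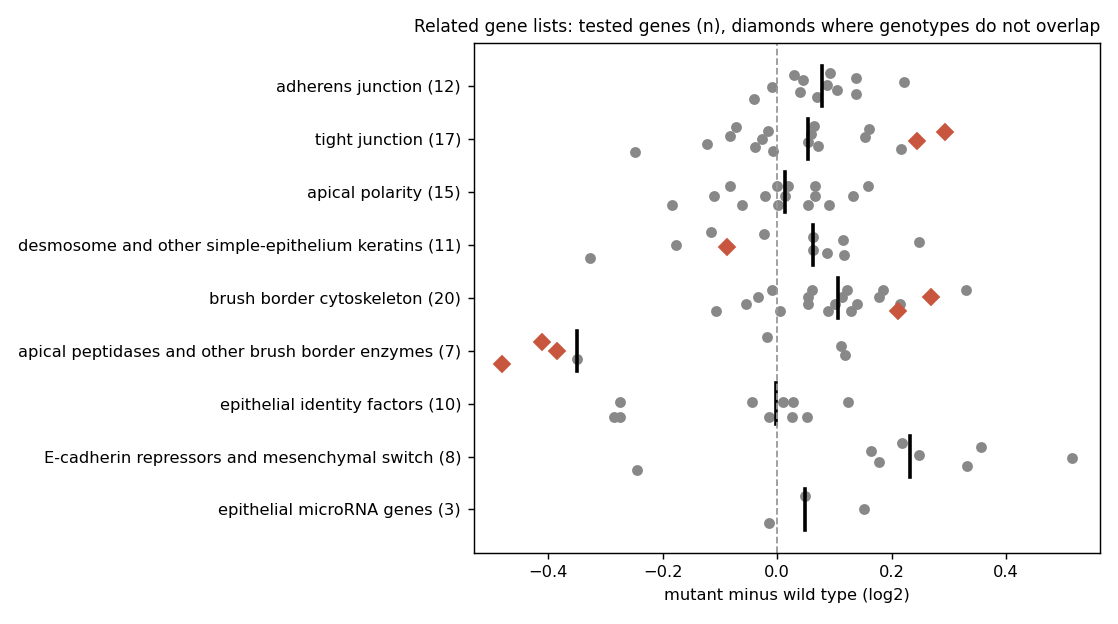
Log2 difference, mutant minus wild type, of every tested gene in the related lists (points; number tested in brackets), with the list median as a black bar and diamonds where the genotypes do not overlap. Brush border cytoskeleton has its median at 0.11 and apical peptidases and other brush border enzymes at −0.35 (−0.11 without wild type 2), where 3 of 7 genes are diamonds, all below 0, beside 3.38% of all tested probe sets.

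Brush border genes were read as a cytoskeletal and an enzyme list. Of the genes for its cytoskeleton and scaffold 16 of 20 had a higher mean in the mutants, with a median of 0.11, against 52.4% and 0.0063 over all tested probe sets; 0 passed the adjusted test. Nherf2, a scaffold that tethers apical transporters, read 6.49, 6.63 and 6.69 in wild type and 6.80, 6.96 and 6.86 in the mutants. The groups did not overlap and differed by 0.27 (SE 0.089; unadjusted p = 0.0181, adjusted p = 0.999, limma). Ush1c, whose product anchors the links between microvillus tips, also did not overlap, at a difference of 0.21 (SE 0.094). The mutants thus lay above without overlap for 2 of the 20, beside 5.17% of all tested probe sets. At an unadjusted limma p under 0.05, 1 of the 20 was higher, beside 2.25%. Ezr (ezrin), which joins actin to the membrane and binds podocalyxin, differed by 0.18 (SE 0.12). The list mean was 0.24 in mutant 2 and 0.14 in the library labelled mutant 1, while mutant 3 read −0.086. Without mutant 2, 11 of 20 genes were higher, with a median of 0.030.

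Of apical enzymes other than Dpp4 and Anpep, 7 of 14 matched genes were bright enough to test. Among these 5 were lower in the mutants, with a median of −0.35 that is the difference of Mme (neprilysin), and 3 had an unadjusted p under 0.05 with groups that did not overlap, where 1.28% of all tested probe sets were lower at that threshold and 3.38% were lower without overlap; 0 passed the adjusted test. Naaladl1, a peptidase of the intestinal brush border, read 6.71, 6.97 and 6.82 in wild type and 6.30, 6.68 and 6.30 in the mutants, a log2 difference of −0.41 (SE 0.13; unadjusted p = 0.0137, adjusted p = 0.999, limma). Alpl, the tissue-nonspecific alkaline phosphatase, read 6.68, 6.84 and 6.88, then 6.58, 6.54 and 6.12, a difference of −0.38 (SE 0.14; unadjusted p = 0.0239, adjusted p = 0.999, limma). Without mutant 3 it was −0.24. The third, Dpep1, a dipeptidase, differed by −0.48 (SE 0.17) and was dim, at 4.25 to 5.24. Mme itself (SE 0.76) read 6.66 in wild type 2 and 3.77 to 5.53 elsewhere. Without wild type 2 its difference turned to 0.54 and the list median was −0.11, and without mutant 2 that median was −0.030.

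Epithelial identity factors had 5 of 10 higher, a median of −0.0018 and 0 past the adjusted test. Grhl2, the Grainyhead-like activator of junction genes, read 4.90, 4.87 and 4.56 in wild type and 4.66, 4.72 and 4.13 in the mutants, a difference of −0.28 (SE 0.17), and −0.088 without mutant 3. It was dim, with mutant 3 below the filter limit of 4.29. Ovol1 differed by −0.28 (SE 0.16), again lowest in mutant 3, at 4.94 against 5.27 to 5.72 elsewhere, and its difference was −0.13 without mutant 3.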

How the data were processed

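The deposited table holds the authors' processed log2 signals of 35557 probe sets for 6 arrays. MAS5 is the only tool in the submitters' processing notes, and no source used here states normalization or scale; log2 was read from the range of values (0.66 to 13.7). Values were used as deposited. Of the probe sets, 21789 have 1 gene symbol, 1621 several and 12147 none. Those with a symbol and a mean at or above the 30th percentile (4.29), 16387 in all, were fitted with limma 3.58.1 in R 4.3.3 (mutant minus wild type, no block, Benjamini-Hochberg adjustment, threshold 0.05). The fit was tested on simulated data. Single values were also compared by exact permutation tests over 20 assignments. A gene with several probe sets was represented by the brightest. Of 217 list entries 206 were matched by symbol or synonym. Members, lists and alternatives were chosen with earlier results of these data known. All members were named, and per related list up to 2 genes a side with the lowest p under 0.05, or else the 2 lowest; others named were chosen after their values were seen. No 2 arrays were duplicates (at most 122 equal values). Alternatives were other scalings, filters, variance models, weights, a block for replicate number, the methods' t-test, an endoderm covariate, gene means and leaving out libraries. Chromosomes and sequences came from RefSeq (GRCm38.p6). The labels give 1 embryo per yolk sac; litters are not given.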

Additional observations from a re-analysis of the deposited data

How the results depend on the processing

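In 17 alternatives no member passed the adjusted test (lowest adjusted p = 0.477, Krt19 with the pair of wild type 2 and mutant 1 removed) and no named gene of the related lists did (lowest 0.536, Vim in the same alternative). The median log2 difference of the 10 genes, 0.064, stayed positive, from 0.013 to 0.15 when 1 library was left out. The number of members at an unadjusted p under 0.05, 0 in limma over all arrays, was 1 with array weights (Dpp4), 1 by the methods' t-test (Anpep), 1 with the visceral endoderm covariate (Cldn6), 1 without that pair (Krt19), and 0 to 1 when 1 library was left out. The number with non-overlapping genotypes was 1, spanned 1 to 4 over the single omissions, and was 4 without the pair. Direction turned in 11 of 170 member values, in genes whose own difference was at most 0.069 in size: Cdh1 was 0.043 with array weights and ranged from −0.16 to 0.13 over the single omissions, Epcam was −0.090 with the covariate and ran from −0.15 to 0.15, Vil1 was −0.062 with the covariate and −0.025 without the library pair and ran from −0.083 to 0.15, Krt8 ran from −0.069 to 0.19, and Podxl was −0.027 without the pair. In the related lists Llgl2 turned to −0.021 without the pair. The cause of these turns was not tested. Leaving out 1 library was applied to the related lists after seeing the data. Whether replicate numbers pair the samples could not be told. Deviations of same-numbered libraries correlated at 0.45, 0.15 and −0.11, and those of other pairs at −0.45 to 0.24. Deviations cancel within a genotype, so these correlations depend on each other and cannot decide it. With the replicate block 0 members had an unadjusted p under 0.05 and the median stayed 0.064. The precision is limited by 3 arrays a group.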
